A study of Mus musculus with 4 samples.

Results

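The genes described here are 31 members of the integrated stress response, most of them targets of the transcription factor ATF4, taken by gene symbol from a table of 54532 genes. The list is one of gene names, drawn up with earlier results of these data known. It holds 7 transcription factors, 7 feedback and stress regulators, 7 enzymes of amino acid synthesis, 4 enzymes of mitochondrial folate metabolism, 3 amino acid transport proteins and 3 other targets. All 31 symbols were found, and Ddit3 also carries a second gene ID with no count in any liver.

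RNA-seq libraries came from 4 livers with a liver-specific knockout of Cpt1a, each taken after a 24 h fast. Cpt1a encodes the enzyme on the outer mitochondrial membrane that attaches carnitine to long-chain fatty acids, and Cpt2 the inner membrane enzyme that takes it off again, so that the acids can be oxidised. For the groups other than the Cpt1a knockout, only means and fold changes from 3 comparison tables of the authors were used. Per-library columns that match no labelled sample were not analysed here. Those tables name the Cpt1a knockout group Cpt1a_AlbCre, a Cpt2 group Cpt2_AlbCre and a reference group Rab30Cpt2_f. AlbCre is the usual name for Cre recombinase driven by the albumin promoter, which acts mainly in hepatocytes. The labels do not state which other cells of the liver keep Cpt1a. The design text describes fasted knockout mice of either gene and littermate controls, gives an earlier deposit for the Cpt2 libraries, and does not explain the name of the reference group. The sources used here give no age, sex or strain. The labels do not state that each library is a different mouse, and the spread among them may be technical.

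The integrated stress response begins when kinases that sense misfolded protein, missing amino acids, haem shortage or viral RNA phosphorylate the translation factor eIF2alpha. General translation then slows, while the mRNA of ATF4 is translated better. ATF4 pairs with C/EBP proteins on DNA and raises genes that import and make amino acids, feed mitochondrial folate metabolism and, through feedback, restore translation. Mitochondrial faults are a known trigger in many tissues. Because ATF4 is controlled largely by translation, its mRNA level is only a partial readout of its activity.

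The libraries held 13138884 to 14116441 counts, and the 31 genes together took 0.135 to 0.180% of them. Cpt1a was at 24.4 to 36.9 FPKM and 6.91-fold lower than in the reference group in the authors' deposited table (adjusted p = 5.27e-51). Cpt2 had a log2 fold change of −0.07 in the Cpt2 group in the authors' deposited table (adjusted p = 0.837), so its transcript count was not called lower there. A count over a whole gene need not show the loss of a part of it, and the label is kept here only as a name, the Cpt2 group. The tissue is labelled liver, and 7 hepatocyte markers summed to 19541 to 27929 FPKM in each library and 6 Kupffer cell markers to 102 to 128 FPKM. Whether the Cpt1a libraries, deposited later, were sequenced together with the Cpt2 libraries is not stated, so batch and genotype cannot be told apart. In whole liver, fewer cells of a type and less RNA per cell cannot be told apart either.

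Against the reference group the Cpt2 group had 13 of 31 genes called higher and 2 called lower in the authors' deposited table, at an adjusted p below 0.05. Of all 17475 genes adjusted there, 10.3% were called higher and 10.7% lower. Against the same reference group, the Cpt1a knockout had no gene of the 31 called higher and 6 called lower in the authors' deposited table. Of about 16862 genes adjusted there, 6.81% were called higher and 7.6% lower. No gene of the 31 had an unadjusted p below 0.05 in the higher direction except Psat1, whose adjusted p was 0.0532 in the authors' deposited table. Set directly against the Cpt2 group, the Cpt1a knockout had 19 of 31 genes lower and 1 higher in the authors' deposited table, where 14.6% of 17755 genes were called lower and 14.2% higher. The gene called higher was Cth.

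The median log2 fold change of the 31 genes was 0.54 for the Cpt2 group against the reference group and −0.82 for the Cpt1a knockout against the Cpt2 group, by the authors' deposited tables. The medians of all genes tested were −0.03 and 0.05 there. The table that sets the Cpt1a knockout beside the reference group holds only genes whose unadjusted p was 0.05 or less, and 22 of the 31 are absent from it. For these the log2 fold changes of both other authors' deposited tables were added. The median over the 9 listed values and 22 sums was −0.24, against 0.01 for all genes. Of the 31 values, 14 were above 0 and 17 below it, so they had no common direction. The 3 comparisons share their groups in pairs, so they are not independent of each other.

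**Figure D1:**
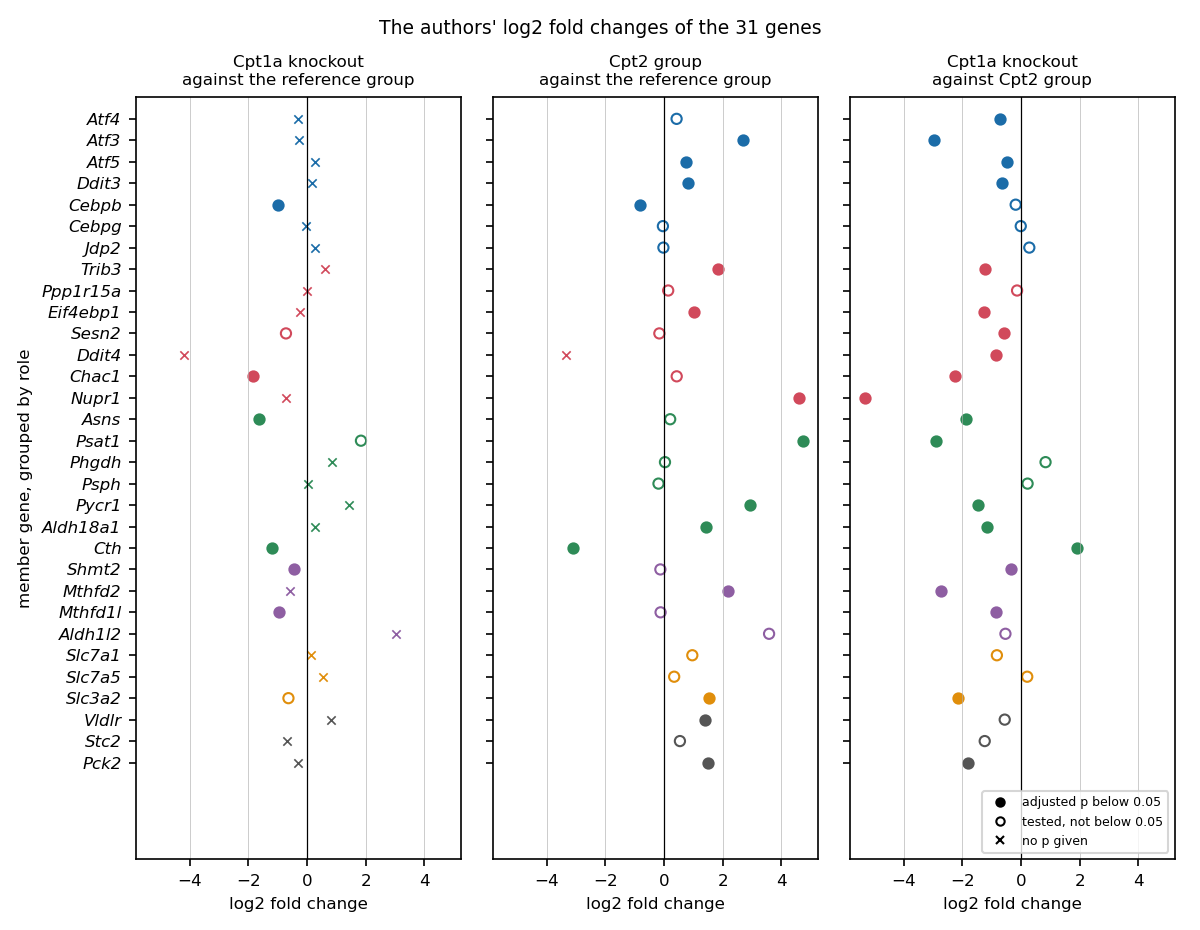
The authors' log2 fold change (horizontal axis) of each of the 31 genes (rows, coloured by role) in the 3 comparisons. Filled points have an adjusted p below 0.05, open points do not, and crosses have no p. In the middle panel 13 genes are filled to the right of 0, and in the right panel 19 are filled to the left.

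**Figure D2:**
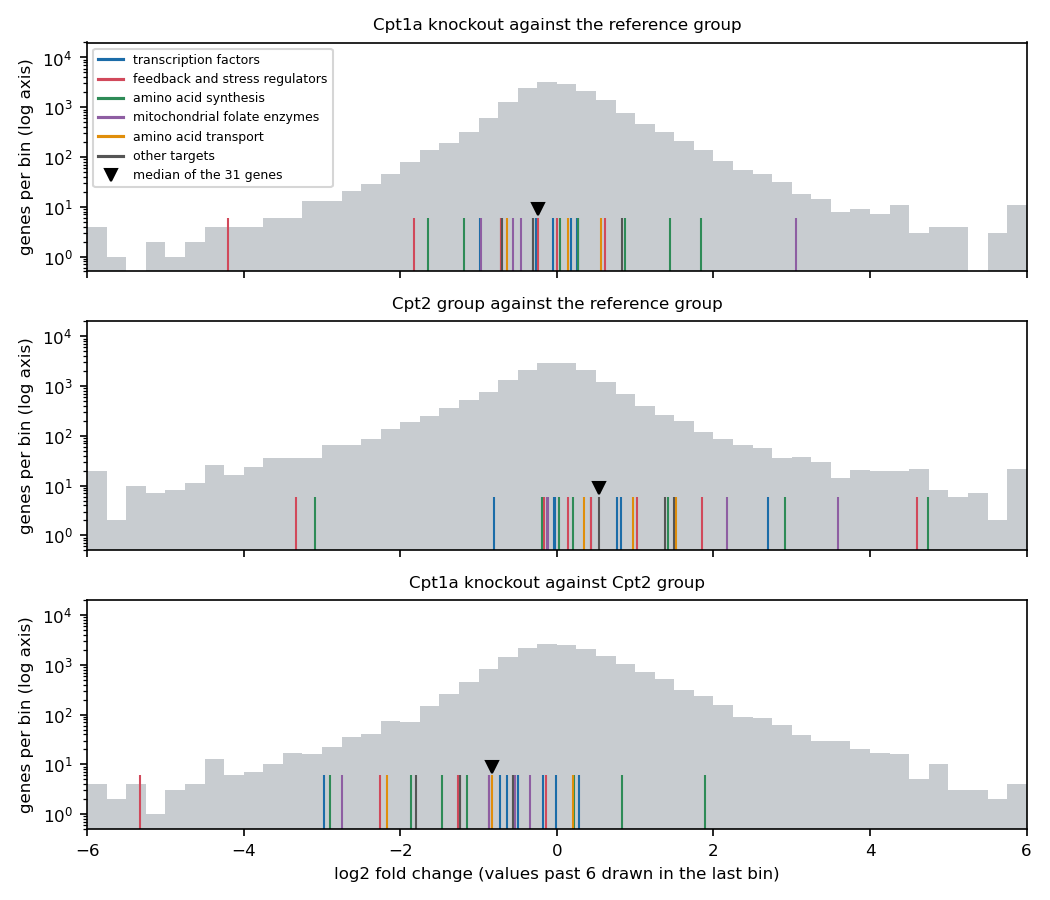
Histograms of the log2 fold change of all genes tested (grey, log count axis), with a coloured line for each of the 31 genes and a black triangle at their median, for the 3 comparisons. The triangle lies at −0.24, 0.54 and −0.82 from top to bottom, and the medians of all genes at 0.01, −0.03 and 0.05.

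Of the cell type marker lists, only that of Kupffer cells had every marker called between the Cpt1a knockout and the Cpt2 group. All 6 Kupffer cell markers (Clec4f, Vsig4, Timd4, Cd5l, Marco and Adgre1) were called higher in the Cpt1a knockout than in the Cpt2 group in the authors' deposited table, and their summed mean was 3778 against 2002 normalized counts. Of 7 hepatocyte markers, 2 (Ttr and Serpina1a) were called higher and 1 (Cps1) lower there in the authors' deposited table. The 7 had summed means of 773846 and 776646 normalized counts, of which Alb alone made 552042 and 491841 in the authors' deposited table. Also called higher there were 2 of 5 lymphocyte, 1 of 3 neutrophil, 1 of 5 endothelial and 1 of 4 bile duct markers. Of 5 stellate cell markers, 1 was higher and 2 lower there, in the authors' deposited table. Of all genes, 14.2% were called higher and 14.6% lower there. Against the reference group these shares were 6.81% and 7.6% for the Cpt1a knockout, and 10.3% and 10.7% for the Cpt2 group. Compared with the reference group, the authors' deposited tables call 5 of 7 hepatocyte markers lower in the Cpt1a knockout and 5 of 7 in the Cpt2 group. Of the Kupffer cell markers they call 3 of 6 lower in the Cpt2 group and 1 of 6, Cd5l, higher in the Cpt1a knockout, where all 6 log2 values (listed or summed) were above 0. In the Cpt1a knockout against the reference group the authors' deposited table also calls higher 1 of 5 lymphocyte markers (Cd79b), 1 of 3 neutrophil markers (Csf3r) and 1 of 5 stellate cell markers (Lrat), and no endothelial marker. In the Cpt2 group 1 of 5 endothelial (Clec4g) and 1 of 4 bile duct markers (Sox9) were called lower than in the reference group. The same held for 1 of 3 exocrine pancreas markers (Cela2a) in the authors' deposited table. The part of these shifts in the results on the 31 genes was not tested.

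The promoters of these genes were searched for the C/EBP-ATF response element, the composite site that ATF4 and a C/EBP partner are known to bind. RefSeq promoter windows of build GRCm38.p6, from 250 bases before the start to 50 after it, were found for 27 of the 31 genes by symbol, and Aldh1l2, Cth, Eif4ebp1 and Slc7a5 had no entry. The core TGATGNAA, on either strand, occurred in 9 of 27 genes (33.3%), against 4.51% of 27025 genes and 3.97% of 32851 windows of the same length. The 30-base stretches that hold it are shown because they are the sequence these genes share, 5′ to 3′ on the strand of each gene, with the core in capitals. A core on the opposite strand is shown as its complement, reversed.
Nupr1 (chr7:126625562-126625591, minus strand): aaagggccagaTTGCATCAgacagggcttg
Atf3 (chr1:191183425-191183454, minus strand): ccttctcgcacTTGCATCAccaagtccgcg
Trib3 (chr2:152344028-152344057, minus strand): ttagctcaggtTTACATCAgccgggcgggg
Chac1 (chr2:119351038-119351067, plus strand): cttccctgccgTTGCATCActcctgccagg
Jdp2 (chr12:85599372-85599401, plus strand): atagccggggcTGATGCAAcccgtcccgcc
Asns (chr6:7693214-7693243, minus strand): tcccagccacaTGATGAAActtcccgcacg
Pycr1 (chr11:120643833-120643862, minus strand): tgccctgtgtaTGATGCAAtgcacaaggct
Vldlr (chr19:27216809-27216838, plus strand): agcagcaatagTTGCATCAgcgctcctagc
Pck2 (chr14:55540152-55540181, plus strand): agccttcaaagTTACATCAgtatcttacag
Distances are from the start of the RefSeq promoter entry. That start lies inside the gene span given by the files for Nupr1, Atf3, Asns, Chac1, Jdp2, Pycr1 and Vldlr. The core starts 110 bases before that start in Nupr1 and in Atf3, 23 before it in Asns and 14 after it in Trib3. Nupr1, Atf3, Chac1 and Vldlr have TTGCATCA, and Jdp2 and Pycr1 have TGATGCAA, the same letters on the other strand, while Trib3 and Pck2 share TTACATCA. Pck2 has the core in a stretch free of annotated exons, and the 250 bases before its start are given for context.
Pck2 (chr14:55540016-55540265, plus strand): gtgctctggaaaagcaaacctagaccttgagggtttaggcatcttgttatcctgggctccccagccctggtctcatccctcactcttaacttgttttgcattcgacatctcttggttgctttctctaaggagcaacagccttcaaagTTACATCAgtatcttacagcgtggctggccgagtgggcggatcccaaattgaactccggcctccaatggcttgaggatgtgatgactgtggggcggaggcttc
Of the 9 genes with the core, 6 were called higher in the Cpt2 group than in the reference group and 7 lower in the Cpt1a knockout than in the Cpt2 group, by the authors' deposited tables. Of the 18 matched genes without it, 6 were called higher and 11 lower in the same comparisons in the authors' deposited tables. Of all genes, 10.3% were called higher in the first of these comparisons and 14.6% lower in the second. The median log2 fold changes were 1.49 and −1.80 with the core, and 0.29 and −0.68 without it. In the Cpt1a knockout against the reference group, 2 of 9 with the core and 3 of 18 without it were called lower. None was called higher there, and the medians were −0.27 and −0.17. Of all genes, 7.6% were called lower there. The difference between both sets was not tested. The cyclic AMP response element TGACGTCA, which other factors of the family are known to bind, was found in Ppp1r15a alone, against 2.03% of all genes. The endoplasmic reticulum stress response element was in none of the 27, against 0.137% of all genes. A match is a stretch of letters and not a measured binding site. Most of the 31 genes were listed as targets of ATF4, so their share with the core is not independent of how the list was made.

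Among the transcription factors, 4 of 7 were lower in the Cpt1a knockout than in the Cpt2 group and none was higher. The share of all genes called lower there was 14.6%. Atf4 (ENSMUSG00000042406, chromosome 15, 80255184 to 80257541, plus strand, GRCm38), the effector of the response, was at 23.5, 32.6, 46.0 and 39.9 FPKM in livers 1 to 4, a mean of 35.5 ± 9.73 FPKM (SD, n = 4). Its highest liver was 1.96 times its lowest. In the authors' deposited table the means were 1275 normalized counts in the Cpt1a knockout and 2113 in the Cpt2 group, and all 4 livers lay below the latter. Atf4 was thus 1.66-fold lower (adjusted p = 0.00173) in the authors' deposited table. In the Cpt2 group against the reference group its log2 fold change was 0.43 with an adjusted p of 0.0986 in the authors' deposited table, and it was not called.

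Atf3 (ENSMUSG00000026628, chromosome 1, 191170296 to 191218039, minus strand), a stress-induced repressor that ATF4 activates, was at 0.835, 1.42, 1.26 and 0.354 FPKM in the 4 livers. In the authors' deposited table the mean was 31.7 normalized counts in these livers and 249 in the Cpt2 group, and again all 4 livers lay below. It was 7.86-fold lower than in the Cpt2 group (adjusted p = 1.01e-20) in the authors' deposited table. The Cpt2 group had 6.50-fold more Atf3 than the reference group (adjusted p = 5.95e-04) in the authors' deposited table. Between the Cpt1a knockout and the reference group Atf3 did not reach an unadjusted p of 0.05, and the summed log2 fold change was −0.27.

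Atf5, a factor of the same family that is linked to mitochondrial stress and to hepatocyte identity, was the most abundant of the 31 genes per length. It stood at 177, 165, 233 and 170 FPKM, with liver 3 above the other 3. It was 1.70-fold higher in the Cpt2 group than in the reference group (adjusted p = 0.00187) and 1.41-fold lower in the Cpt1a knockout than in the Cpt2 group (adjusted p = 0.0103) in the authors' deposited tables. Ddit3, a gene that encodes the pro-apoptotic factor CHOP, was at 3.31, 3.61, 5.19 and 4.35 FPKM. Its changes were of like size, 1.76-fold higher (adjusted p = 0.00311) and 1.56-fold lower (adjusted p = 0.0183) in the authors' deposited tables.

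Of the C/EBP partners, Cebpb, a liver factor of fasting and inflammation, was called lower than in the reference group in the Cpt1a knockout and in the Cpt2 group. It was at 59.9, 58.8, 114 and 83.8 FPKM, and the means in the authors' deposited table were 1736 normalized counts in the Cpt1a knockout and 3427 in the reference group. Cebpb was 1.97-fold lower in the Cpt1a knockout (adjusted p = 0.0199) and 1.75-fold lower in the Cpt2 group (adjusted p = 0.0295), each against the reference group, in the authors' deposited tables. It was not called between the Cpt1a knockout and the Cpt2 group, with a log2 fold change of −0.18 (adjusted p = 0.583) in the authors' deposited table. Cebpg, a C/EBP protein that pairs with ATF4, was among the steadiest genes at 12.6, 12.5, 12.1 and 12.3 FPKM, and it had adjusted p-values of 0.910 (Cpt2 group against reference) and 0.962 (Cpt1a knockout against Cpt2 group) in the authors' deposited tables. Jdp2, a repressor close in sequence to Atf3, was at 0.859 to 1.58 FPKM and was called in no comparison. An exon of Tmem189 on the opposite strand covers 20.7% of the exon bases of Cebpb in GENCODE vM21, and whether the counting used strand is not stated.

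Of the feedback and stress regulators, 6 of 7 were lower in the Cpt1a knockout than in the Cpt2 group, against 14.6% of all genes. Nupr1 (ENSMUSG00000030717, chromosome 7, 126623249 to 126630861, minus strand), a small chromatin protein of the stress response, was at 0.0265, 0.185, 0.376 and 0.152 FPKM from only 29 counts over all livers. Liver 1 had 1 count and liver 3 had 15. In the authors' deposited table the means were 7.07 normalized counts in the Cpt1a knockout and 286 in the Cpt2 group, and all 4 livers lay far below that mean. The difference was 40.1-fold, the largest among the 31 genes in that comparison (adjusted p = 2.22e-37) in the authors' deposited table. The reference group had a mean of 10.9 normalized counts, and the Cpt2 group was 24.3-fold higher (adjusted p = 1.64e-28) in the authors' deposited table.

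Trib3 (ENSMUSG00000032715, chromosome 2, 152337422 to 152344032, minus strand), a pseudokinase that restrains ATF4 and insulin signalling, was at 5.24, 5.48, 7.30 and 6.44 FPKM, and the 4 livers lay close together. It was 3.60-fold higher in the Cpt2 group than in the reference group (adjusted p = 1.44e-06) and 2.35-fold lower in the Cpt1a knockout than in the Cpt2 group (adjusted p = 2.52e-09) in the authors' deposited tables. Eif4ebp1, which holds back cap-dependent translation, was at 9.89, 9.93, 18.3 and 14.9 FPKM, with livers 3 and 4 above livers 1 and 2. Its values were 2.04-fold higher (adjusted p = 6.09e-05) and 2.41-fold lower (adjusted p = 6.31e-07) in the same comparisons in the authors' deposited tables.

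Chac1, which degrades glutathione, was the regulator called lower in the Cpt1a knockout than in the reference group. Its 40 counts gave 0.244, 0.244, 0.693 and 0.389 FPKM, and liver 3 was the highest. Chac1 was 3.55-fold lower in the Cpt1a knockout than in the reference group (adjusted p = 0.0288) in the authors' deposited table, with means of 9.38 and 33.4 normalized counts. It was also 4.80-fold lower than in the Cpt2 group (adjusted p = 3.18e-07), while the Cpt2 and reference groups had an adjusted p of 0.630 in the authors' deposited tables.

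Sesn2, an inhibitor of mTORC1 that senses leucine, was at 4.87, 3.52, 3.57 and 3.77 FPKM and 1.48-fold lower than in the Cpt2 group (adjusted p = 0.0245) in the authors' deposited table. Ddit4, another inhibitor of mTORC1, was at 4.94, 5.64, 3.41 and 3.55 FPKM and 1.82-fold lower than in the Cpt2 group (adjusted p = 2.18e-04) in the authors' deposited table. Its log2 fold change in the Cpt2 group against the reference group was −3.33, but the authors' deposited table gives no p-value for this difference, and nothing is read from it. Ppp1r15a, the phosphatase subunit that reverses eIF2alpha phosphorylation, was at 3.72, 5.23, 3.93 and 3.68 FPKM and was called in no comparison, with adjusted p-values of 0.810 (Cpt2 group against reference) and 0.645 (Cpt1a knockout against Cpt2 group) in the authors' deposited tables.

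**Figure D3:**
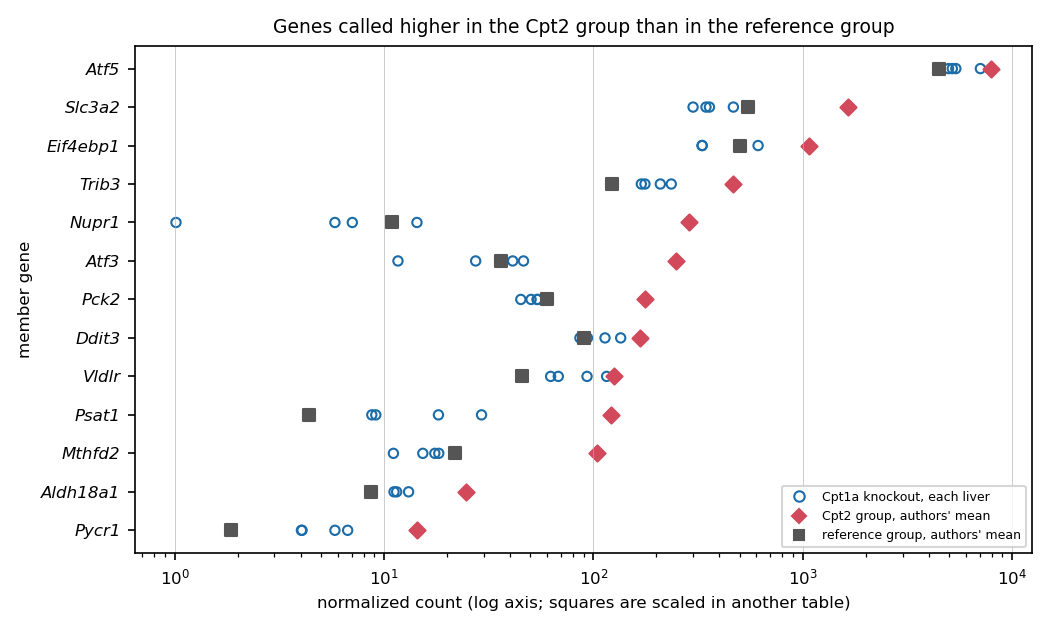
Normalized counts (log axis) of the 13 genes called higher in the Cpt2 group than in the reference group. Circles are the 4 Cpt1a knockout livers, diamonds the authors' mean of the Cpt2 group in the same table, and squares the authors' mean of the reference group, which was scaled in a separate table. For Nupr1 the circles lie between 1.02 and 14.4 and the diamond at 286.

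Of the 7 enzymes of amino acid synthesis, 4 were lower and 1 higher in the Cpt1a knockout than in the Cpt2 group. Of all genes, 14.6% were called lower and 14.2% higher there. Serine is made from a glycolytic intermediate by Phgdh, Psat1 and Psph in that order. Psat1 (ENSMUSG00000024640, chromosome 19, 15904678 to 15947337, minus strand) was at 0.141, 0.453, 0.281 and 0.135 FPKM from 66 counts. The reference group had a mean of 4.41 normalized counts, and the Cpt2 group stood 26.7-fold above it (adjusted p = 8.1e-21) in the authors' deposited table. The Cpt1a knockout was 7.48-fold lower than the Cpt2 group (adjusted p = 3.46e-12) in the authors' deposited table. It stood 3.59-fold above the reference group, with all 4 livers above that group's mean of 4.39 normalized counts, but the adjusted p was 0.0532 in the authors' deposited table.

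The enzymes before and after Psat1 did not pass the test anywhere. Whether their changes differ from that of Psat1 was not tested. Phgdh had 18 counts over the 4 livers (0.101 to 0.134 FPKM), and the mean was 2.50 normalized counts in the Cpt2 group and 2.34 in the reference group in 2 separately scaled tables, the authors' deposited tables. Psph was at 0.739 to 1.14 FPKM, with adjusted p-values of 0.733 (Cpt2 group against reference) and 0.553 (Cpt1a knockout against Cpt2 group) in the authors' deposited tables. Exons of Cct6a on the opposite strand cover 10.4% of the exon bases of Psph, and Cct6a had 7572 counts over the livers against 261 for Psph.

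Asns (ENSMUSG00000029752, chromosome 6, 7675169 to 7693254, minus strand), asparagine synthetase and a classic ATF4 target, was among the most variable of the 31 genes. It was at 0.536, 1.19, 1.24 and 0.233 FPKM, so the highest liver was 5.35 times the lowest. Asns was 3.12-fold lower in the Cpt1a knockout than in the reference group (adjusted p = 0.00381), with means of 32.0 and 100.1 normalized counts in the authors' deposited table. It was 3.64-fold lower than in the Cpt2 group (adjusted p = 0.0392) in the authors' deposited table. Between the Cpt2 and reference groups its log2 fold change was 0.21 (adjusted p = 0.822) in the authors' deposited table.

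The proline enzymes were low throughout. Aldh18a1, which makes the precursor pyrroline carboxylate, had 45 counts over the livers (0.141 to 0.212 FPKM), and Pycr1, which reduces it to proline, had 21 (0.0676 to 0.112 FPKM). Aldh18a1 was 2.67-fold and Pycr1 7.57-fold higher in the Cpt2 group than in the reference group (adjusted p = 0.0135 and 0.0013) in the authors' deposited table. The reference mean of Pycr1 was only 1.85 normalized counts in the authors' deposited table, so the size of its fold rests on few reads. In the Cpt1a knockout they were 2.22-fold and 2.77-fold lower than in the Cpt2 group (adjusted p = 0.0204 and 0.0331) in the authors' deposited table.

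The one gene of the 31 called higher in the Cpt1a knockout than in the Cpt2 group was Cth (ENSMUSG00000028179, chromosome 3, 157894248 to 157925077, minus strand), which makes cysteine from cystathionine. It was abundant at 175, 208, 166 and 96.1 FPKM, and liver 4 was the lowest. In the authors' deposited table the means were 6570 normalized counts in the Cpt1a knockout and 14944 in the reference group, with all 4 livers below the latter. Cth was 2.27-fold lower in the Cpt1a knockout (adjusted p = 1.71e-04) and 8.54-fold lower in the Cpt2 group (adjusted p = 7.73e-29), each against the reference group, in the authors' deposited tables. It was 3.72-fold higher in the Cpt1a knockout than in the Cpt2 group (adjusted p = 2.02e-11) in the authors' deposited table.

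Of the mitochondrial folate enzymes, 3 of 4 were lower in the Cpt1a knockout than in the Cpt2 group, against 14.6% of all genes. Mthfd2 (ENSMUSG00000005667, chromosome 6, 83305691 to 83325908, minus strand), which oxidises methylene-tetrahydrofolate in mitochondria and is low in most adult tissues, was at 0.344, 0.210, 0.289 and 0.328 FPKM. Its mean was 15.5 normalized counts in these livers and 104 in the Cpt2 group, a 6.68-fold difference (adjusted p = 4.79e-13) in the authors' deposited table. The Cpt2 group was 4.52-fold above the reference group (adjusted p = 5.57e-09) in the authors' deposited table.

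Shmt2, which passes a carbon unit from serine to folate in mitochondria, and Mthfd1l, which releases formate, were, unlike Mthfd2, called in the Cpt1a knockout against the reference group. Shmt2 was at 39.8, 44.4, 51.3 and 44.7 FPKM and Mthfd1l at 1.59, 0.839, 1.07 and 0.861 FPKM. Both were lower in the Cpt1a knockout than in the reference group, Shmt2 by 1.37-fold (adjusted p = 0.0317) and Mthfd1l by 1.96-fold (adjusted p = 0.0111), in the authors' deposited table. Against the Cpt2 group they were 1.27-fold and 1.82-fold lower (adjusted p = 0.0283 and 0.0039) in the authors' deposited table. In the Cpt2 group against the reference group both had a log2 fold change of −0.12 and were not called (adjusted p = 0.617 and 0.816) in the authors' deposited table. Aldh1l2, which oxidises formyl-tetrahydrofolate, had 11 counts over 3 livers and none in liver 4, and its mean in the reference group was 0.224 normalized counts in the authors' deposited table, so no fold is given.

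Of the amino acid transport proteins, Slc3a2 (ENSMUSG00000010095, chromosome 19, 8706882 to 8723369, minus strand), the shared heavy chain, was called in 2 comparisons, and the light chain Slc7a5 and the cationic transporter Slc7a1 in none. Slc3a2 was at 6.42, 5.60, 8.70 and 6.65 FPKM, and the means in the authors' deposited table were 368 normalized counts in the Cpt1a knockout and 1649 in the Cpt2 group. It was 4.49-fold lower in the Cpt1a knockout than in the Cpt2 group (adjusted p = 5.61e-25) and 2.88-fold higher in the Cpt2 group than in the reference group (adjusted p = 2.04e-08) in the authors' deposited tables. The value against the reference group was 1.55-fold lower in the Cpt1a knockout with an adjusted p of 0.0709 in the authors' deposited table. Slc7a5 was at 0.635 to 1.35 FPKM and Slc7a1 at 0.0751 to 0.132 FPKM. Slc7a1 had an adjusted p of 0.0692 for 1.95-fold more in the Cpt2 group than in the reference group in the authors' deposited table.

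Among the other targets, Pck2 (ENSMUSG00000040618, chromosome 14, 55540266 to 55551242, plus strand), the mitochondrial form of phosphoenolpyruvate carboxykinase, was at 0.452, 0.426, 0.379 and 0.456 FPKM, a narrow range. It was 3.48-fold lower in the Cpt1a knockout than in the Cpt2 group (adjusted p = 5.45e-15) and 2.82-fold higher in the Cpt2 group than in the reference group (adjusted p = 1.49e-08) in the authors' deposited tables. Vldlr, a lipoprotein receptor, was at 0.754, 0.409, 0.444 and 0.607 FPKM. It was 2.61-fold higher in the Cpt2 group than in the reference group (adjusted p = 0.0156) in the authors' deposited table, and its adjusted p in the Cpt1a knockout against the Cpt2 group was 0.178. Stc2, a secreted glycoprotein, had 11 counts over the livers and was called in no comparison.

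Across the 4 livers the 31 genes covered a wide range of levels per length. Mean FPKM reached 10 in 7 genes (Atf5, Cth, Cebpb, Shmt2, Atf4, Eif4ebp1 and Cebpg) and stayed below 1 in 15. Atf5 at 186 ± 31.6 FPKM and Cth at 161 ± 47.0 FPKM (SD, n = 4 each) did not differ beyond their spread. The next genes were Cebpb at 79.0 ± 25.8, Shmt2 at 45.0 ± 4.73 and Atf4 at 35.5 ± 9.73 FPKM (SD, n = 4 each), and the ranges of Shmt2 and Atf4 overlapped. On a log2(FPKM + 1) scale the SD over the 4 livers had a median of 0.19 for the 31 genes. For the 16 of them with a mean FPKM of at least 1 it was 0.23, against 0.20 for all 10859 such genes. The largest SDs among the 16 were 0.48 for Cth, 0.45 for Cebpb, 0.41 for Eif4ebp1, 0.41 for Atf4 and 0.29 for Ddit4. Liver 3 was the highest in 13 of the 31 genes and liver 4 in 2, while liver 4 was the lowest in 10.

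**Figure D4:**
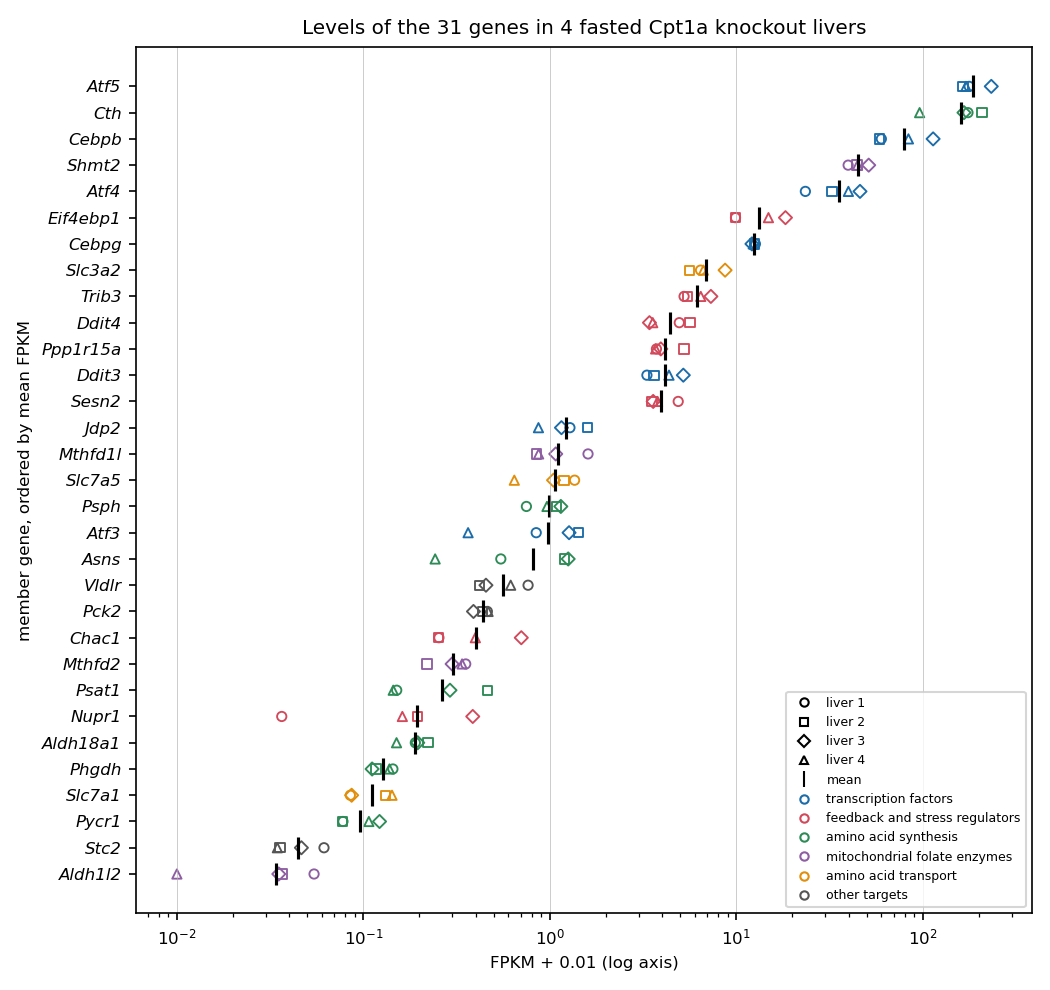
FPKM + 0.01 (log axis) of each of the 31 genes in the 4 Cpt1a knockout livers, one symbol per liver, coloured by role, with a black bar at the mean. Genes are ordered by mean FPKM, from Aldh1l2, with a value of 0 in liver 4, to Atf5 at 186 FPKM.

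Genes that start, relay or neighbour the response were counted in 7 further lists. The shares of all genes to read these counts against are 10.3% higher and 10.7% lower for the Cpt2 group against the reference group, 6.81% and 7.6% for the Cpt1a knockout against the reference group, and 14.2% and 14.6% for the Cpt1a knockout against the Cpt2 group. Of 14 genes for eIF2alpha kinases, phosphatase subunits and related factors, 4 were higher and 1 lower in the Cpt2 group than in the reference group in the authors' deposited table. Compared with the Cpt2 group, 8 of the 14 were lower in the Cpt1a knockout and none was higher in the authors' deposited table. Eif2ak3, which encodes the kinase PERK of the endoplasmic reticulum and was picked out after its values were seen, was at 1.31 to 1.85 FPKM in the livers. Its log2 fold changes were 1.41 in the Cpt2 group (adjusted p = 3.83e-13) and −1.82 in the Cpt1a knockout against the Cpt2 group (adjusted p = 1.12e-24) in the authors' deposited tables. Of only 7 genes that relay mitochondrial stress, 2 were higher in the Cpt2 group than in the reference group and 3 lower in the Cpt1a knockout than in the Cpt2 group, by the authors' deposited tables. Afg3l2, a protease of the inner mitochondrial membrane, was the one called lower in the Cpt1a knockout against the reference group, with a log2 fold change of −0.61 (adjusted p = 0.00453) in the authors' deposited table.

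Cytosolic tRNA synthetases, which load amino acids onto tRNA and include many ATF4 targets, were counted next, together with the tRNA exporter Xpot. Of these 21 genes, 20 were lower in the Cpt1a knockout than in the Cpt2 group and none was higher in the authors' deposited table. The gene not called there was Xpot, which is not a synthetase (adjusted p = 0.650 in the authors' deposited table). In the Cpt2 group 10 were higher than in the reference group and none lower, and in the Cpt1a knockout 8 were lower and none higher in the authors' deposited tables. Against the reference group Eprs had a log2 value of −1.11 (adjusted p = 4.69e-07), Aars of −0.86 (adjusted p = 2.24e-05) and Iars of −0.79 (adjusted p = 9.03e-04) in the Cpt1a knockout in the authors' deposited table. Iars was higher in the Cpt2 group by 0.64 on the log2 scale (adjusted p = 8.96e-04), while Eprs and Aars were not called there (adjusted p = 0.507 and 0.532) in the authors' deposited table.

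Further ATF4 targets were mixed. Of 25 genes, 9 were higher and 5 lower in the Cpt2 group, and 7 were lower and none higher in the Cpt1a knockout, each against the reference group in the authors' deposited tables. Compared with the Cpt2 group, 4 were higher and 12 lower in the Cpt1a knockout in the authors' deposited table. Cbs, the enzyme before Cth in cysteine synthesis, was lower in the Cpt1a knockout and in the Cpt2 group, with log2 fold changes of −1.18 and −1.26 (adjusted p = 1.33e-12 and 1.0e-12) in the authors' deposited tables. Got1, cytosolic aspartate aminotransferase, had values of −1.94 and −1.72 (adjusted p = 2.89e-07 and 5.88e-09) in the authors' deposited tables. Cdkn1a, the cell cycle inhibitor p21, had −2.84 in the Cpt1a knockout (adjusted p = 1.44e-12) and −0.02 in the Cpt2 group (adjusted p = 0.987) in the authors' deposited tables.

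The secreted hormones Fgf21 and Gdf15 were picked out after their values were seen. Fgf21, a fasting hormone of the liver, was at 14.9 to 35.8 FPKM in the Cpt1a knockout livers and Gdf15, which lowers appetite, at 1.11 to 4.53 FPKM. In the Cpt2 group against the reference group their log2 fold changes were 2.74 (adjusted p = 1.12e-04) and 3.20 (adjusted p = 2.16e-05) in the authors' deposited table. In the Cpt1a knockout against the Cpt2 group they were −1.58 (adjusted p = 5.14e-06) and −3.28 (adjusted p = 4.61e-10) in the authors' deposited table. Neither is listed for the Cpt1a knockout against the reference group. In separately scaled tables of the authors, Fgf21 had means of 302 normalized counts in the Cpt1a knockout and 128 in the reference group. For Gdf15 these means were 81.7 and 82.8.

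Genes of the IRE1 and ATF6 arms of the unfolded protein response, and chaperones of the endoplasmic reticulum, formed a list of 20. Of these, 15 were lower in the Cpt1a knockout and 13 in the Cpt2 group than in the reference group, and none was higher, in the authors' deposited tables. The median log2 fold changes were −0.85 and −0.58. In the Cpt1a knockout the disulfide isomerase Pdia6 had a log2 value of −1.60 (adjusted p = 4.35e-17), the chaperone Hsp90b1 of −1.44 (adjusted p = 1.01e-11) and Calr, a calcium-binding chaperone, of −1.42 (adjusted p = 1.58e-11) in the authors' deposited table. The arms' own factors Ern1, which encodes IRE1, Xbp1 and Atf6, named after their values were seen, were called in neither comparison with the reference group. In the Cpt2 group the values of Pdia6, Hsp90b1 and Calr were −1.10, −0.58 and −0.77 in the authors' deposited table, all called lower.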

How the data were processed

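Liver RNA was sequenced in 4 Cpt1a knockout libraries. HISAT2 and the builds GRCm38 and mm10 are named in the submitters' processing notes. The counting tool, the use of strand and the authors' test are not stated in those notes or the file headers. The authors deposited raw counts per gene (13138884 to 14116441 per library) and FPKM. They also deposited 3 comparison tables with normalized read counts (a signal scaled within each table), log2 fold changes, p-values and adjusted p-values. The 8 per-sample columns outside the 4 libraries were not used. Means of the Cpt2 group come from its table with the Cpt1a knockout.

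Those 8 columns match no labelled sample. No model between groups was therefore fitted, every difference is the authors' own, and a gene was called at an adjusted p below 0.05. An adjusted p given as 1 without adjustment was treated as missing. The table setting Cpt1a knockout beside reference holds 4461 genes whose unadjusted p was 0.05 or less, adjusted over about 16862. For the 22 of the 31 genes absent from it, the log2 fold changes of both other tables were summed. Over 4424 genes listed in it, sum and listed value had a median difference of 0.01, and differed by at most 0.09 at a mean count of at least 10. Spread between livers was the SD of log2(FPKM + 1). Coordinates are those of the files, which match GENCODE vM21 on GRCm38 for 31 of 31 genes.

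The 31 genes and all lists were chosen with earlier results of these data known. All 31 genes are named, and in each further list the 3 genes with the smallest adjusted p for the Cpt1a knockout against the reference group could be named. Scripts ran in Python 3.11.15 with pandas 2.3.3, and edgeR 4.0.16 in R 4.3.3 gave TMM factors for a check of levels. The scripts were tested on simulated data. Adjusted thresholds, a minimum fold change, a count filter, centring, TPM, another pseudocount and leaving out each liver were tried.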

Additional observations from a re-analysis of the deposited data

Results flagged for a closer look

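Ppp1r15a, the phosphatase subunit that ends eIF2alpha phosphorylation, stood at 5.23 FPKM in liver 2, while livers 1, 3 and 4 lay between 3.68 and 3.93 FPKM. The gap to the nearest liver was 0.842 of the whole range, above Dixon's limit for 4 samples. All 31 genes were looked at in this way, and chance alone marks about 1 in 20 such groups.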

How the results depend on the processing

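Of 50 alternatives, 41 left the direction and the count or value within the limits set. At an adjusted p below 0.1, 1 gene (Psat1) was called higher in the Cpt1a knockout than in the reference group, where none was at 0.05. At an adjusted p below 0.01, the genes called lower were 2 for the Cpt1a knockout and 1 for the Cpt2 group against the reference group, and 12 for the Cpt1a knockout against the Cpt2 group. With a minimum log2 fold change of 1 these counts were 3, 1 and 12. The median level of the 31 genes was 6.48 FPKM over those with a mean of at least 1, and 2.75 as TPM. These follow from fewer genes passing and from the rescaling. Leaving out each liver gave a median level of 1.01 to 1.17 FPKM and a median SD of 0.13 to 0.19. No paired analysis was possible because the labels name samples of 1 group only, and per-library columns that match no labelled sample were not used. Depth limits Nupr1, Pycr1, Phgdh, Aldh1l2 and Stc2, which had fewer than 30 counts over all livers.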

Other observations

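Folate and one-carbon enzymes outside the mitochondrial set were counted beside it. Of 17 genes, 1 was higher and 7 lower in the Cpt1a knockout than in the reference group, and 2 were higher and 8 lower in the Cpt2 group, by the authors' deposited tables. Aldh1l1, the cytosolic counterpart of Aldh1l2, had log2 fold changes of −2.16 (adjusted p = 3.62e-17) and −2.22 (adjusted p = 3.72e-15) in the authors' deposited tables. Gldc, the glycine decarboxylase of mitochondria, had −1.61 (adjusted p = 6.55e-14) and −1.47 (adjusted p = 1.11e-10) in the authors' deposited tables. Between the Cpt1a knockout and the Cpt2 group the 17 genes gave 5 calls in each direction in the authors' deposited table.

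Mitochondrial chaperones and proteases formed a list of 12. In the Cpt1a knockout, 6 of these were lower than in the reference group and 9 lower than in the Cpt2 group. None was higher, by the authors' deposited tables. Of all genes, 7.6% and 14.6% were called lower in these comparisons. Clpx, the protein-unfolding subunit of a protease, had a log2 fold change of −1.22 in the Cpt1a knockout against the reference group. The protease Lonp1 had −0.83 and the chaperone Trap1 −0.69 in that comparison, in the authors' deposited table. In the Cpt2 group the values of Clpx, Lonp1 and Trap1 were −0.21, 0.03 and −0.03 in the authors' deposited table, with no call.

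The summed exocrine pancreas markers ranged from 0 to 4.26 FPKM over the 4 livers, and the adipocyte marker Lep was at 0 in every liver.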
